A study of Mus musculus with 2 samples.

Results

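The 9 genes described here were grouped as brakes on Wnt signalling. Axin2 and Nkd1 encode cytoplasmic proteins, Notum, Wif1, Dkk2 and Dkk3 secreted proteins, and Apcdd1, Znrf3 and Rnf43 membrane proteins. The 9 genes were chosen by symbol from the 32285 genes of the deposited count matrices. All 9 were present and counted in both libraries. Cells were taken by a gate of 5000 or more UMIs (unique molecular identifiers, each counting 1 captured transcript) with at least 1 UMI of Epcam, an epithelial adhesion gene. The gate held 5576 barcodes of the WT library and 5325 of the KO library.

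Colon tumours from mice given AOM and DSS, a carcinogen and an agent that inflames the colon, were digested and profiled by droplet single-cell RNA sequencing that reads transcripts from their 3′ ends. One library came from Gsk3b (IEC+/+) mice (WT library) and the other from Gsk3b (IEC-/-) mice, in which the labels place the loss in intestinal epithelium (KO library). Both groups received the same carcinogen and inflammation, and the label gives neither the promoter that drove the deletion nor the number of animals. With 1 library per genotype no test between genotypes was possible: every interval below is a 95% interval for counting error, and genotype cannot be told apart from animal, tumour or library.

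Wnt proteins hold the β-catenin destruction complex, of which Gsk3b is a kinase, in check, so that β-catenin accumulates and acts with TCF/LEF factors in the nucleus. Several of its target genes feed back on the pathway. Axin2 is a scaffold of the destruction complex, Nkd1 binds Dishevelled, Notum removes the lipid that Wnt proteins need, Wif1 binds Wnt proteins, Dkk2 binds the co-receptor Lrp6, and Znrf3 and Rnf43 are ubiquitin ligases that remove Frizzled receptors. Apcdd1 is a membrane inhibitor of Wnt receptors, and Dkk3 is a divergent Dickkopf family member. In the colon several of these genes, Axin2 among them, are known as readouts of Wnt activity in crypts and in tumours.

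The genes lie on several chromosomes of mouse build mm10 (GENCODE M21 gene spans). Axin2 is at chr11:108920349-108950783, Notum at chr11:120653788-120661175, Znrf3 at chr11:5276324-5444847 and Rnf43 at chr11:87662722-87735539. Nkd1 is at chr8:88521354-88594884, Wif1 at chr10:121033960-121100650, Dkk2 at chr3:132085292-132180304 and Dkk3 at chr7:112116017-112159057. RefSeq promoters (GRCm38.p6) were used for 5 of the 9 genes, with 6 start sites. The 250 bases before the start are shown for Axin2, the standard readout of the pathway, and for Dkk2, whose level is among the most unequal between cells; both lie on the plus strand, and capitals mark the letters CTTTG.

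Axin2, chr11:108920099-108920348: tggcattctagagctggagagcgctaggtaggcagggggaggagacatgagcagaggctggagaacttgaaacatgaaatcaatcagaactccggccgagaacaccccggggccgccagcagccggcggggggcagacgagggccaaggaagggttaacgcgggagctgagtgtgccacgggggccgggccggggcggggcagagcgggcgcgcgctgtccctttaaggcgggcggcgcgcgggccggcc

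Dkk2, chr3:132085042-132085291: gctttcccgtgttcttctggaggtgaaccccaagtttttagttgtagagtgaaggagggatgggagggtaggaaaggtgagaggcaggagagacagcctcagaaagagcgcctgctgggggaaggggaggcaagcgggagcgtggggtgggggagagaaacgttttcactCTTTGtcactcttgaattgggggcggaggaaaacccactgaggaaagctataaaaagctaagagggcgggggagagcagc

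The TCF/LEF motif, CTTTG followed by AA, AT, TA or TT and searched on both strands, was in none of the 6 member promoters, against 14.8% of all 32851 promoters of this length. The shorter core CTTTG was searched after that result was known; it was in 2 of 6, those of Dkk2 and Wif1, against 48.6% of all. These windows hold only the bases next to the start. Promoters of Notum, Dkk3, Apcdd1 and Znrf3 were not among the member promoters, so these counts do not cover them. The choice of member promoters left out chromosome 18, where Apcdd1 lies, while the 32851 promoters were not restricted in this way.

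The gate was not purely epithelial. Clusters named from epithelial markers held 70.6% of gated WT barcodes (3935) and 73.3% of gated KO barcodes (3904). Most others lay in macrophage, T cell, fibroblast, plasma, endothelial and mast clusters, or in unnamed clusters led by neutrophil, dendritic or B cell genes. The unnamed cluster led by S100a8 and S100a9 (237 WT, 239 KO barcodes) also passed 8 epithelial markers. It had 1874 CPM of Epcam in WT and 2514 CPM in KO, so barcodes outside the epithelial clusters are not all free of epithelial RNA. A further cluster, led by Sprr2d, Psca and Ppbp (0 WT, 24 KO barcodes), was given the name neutrophil by the marker rule. Fibroblast barcodes in the gate numbered 30 in WT and 172 in KO. The summed level of 7 fibroblast markers was 40.9 CPM in WT and 271 CPM in KO gated barcodes (CPM, UMIs per 1000000 UMIs of the set), and 4.78 and 26.8 CPM in the epithelial clusters; none of the 7 was at 0. The summed level of 8 macrophage markers was 348 and 165 CPM in the epithelial clusters. The name neutrophil is doubtful for the cluster led by Sprr2d, which held 1561 CPM of Epcam and 43.4 CPM of Ptprc, a leukocyte gene. In the clustering of all called cells, a cluster led by Psca, Ppbp and Sprr2d was named epithelial. Counts of members are therefore given for the gate and for its epithelial clusters, and levels for the epithelial clusters. The libraries shared 6 gated barcodes. Median depth was 22959 UMIs in WT and 21580 UMIs in KO epithelial clusters. Gsk3b itself had 248 CPM in WT and 231 CPM in KO gated barcodes, a log2 ratio of -0.11 (-0.13 to -0.08); a 3′ tag can lie outside the deleted part, so this level does not check the deletion.

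Most of the 9 genes had lower levels in the KO library. In the gate 8 of 9 had a log2 ratio of KO over WT below 0, against 55.7% of all 19637 genes with 20 or more UMIs. The median of the 9 was -0.39, beside -0.04 over all those genes. Those lower beyond 1.5-fold were 2 of 9, Dkk3 and Apcdd1, against 10.3% of all genes; none was higher beyond 1.5-fold, against 9.01%. In the epithelial clusters all 9 were below 0, against 59.4% of 18676 genes, with a median of -0.41 beside -0.06. The same 2 genes were lower beyond 1.5-fold there, against 11.7% of all genes (7.10% were higher). In the gate the log2 ratios were -0.28 for Axin2, -0.09 for Nkd1, -0.34 for Wif1, -0.55 for Dkk2, -0.97 for Dkk3, -0.84 for Apcdd1, -0.39 for Znrf3 and -0.44 for Rnf43. Notum's sign differed between the sets: it was 0.01 in the gate (-0.02 to 0.05) and -0.02 in the epithelial clusters, both with intervals that span 0.

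The cytoplasmic pair differed little between libraries. In epithelial clusters Axin2 had 98.8 CPM in WT and 79.0 CPM in KO, a log2 ratio of -0.32 (-0.36 to -0.28). Nkd1 had 321 CPM and 297 CPM, a log2 ratio of -0.11 (-0.13 to -0.09). Both were a little higher in WT, by less than the 1.5-fold limit.

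Among the secreted proteins, Notum was level and Dkk3 was the most unequal. Notum, a lipase that acts on Wnt proteins outside the cell, had 102.8 CPM in WT and 101.3 CPM in KO epithelial clusters, and its log2 ratio of -0.02 had an interval that spans 0 (-0.06 to 0.02). Wif1 had 298 and 231 CPM (log2 -0.37, -0.39 to -0.34). Dkk2 had 109.8 and 73.4 CPM, a ratio of 1.495-fold in favour of WT that lies just inside the limit. Dkk3 had 27.0 and 11.6 CPM (log2 -1.23, -1.32 to -1.13); in the whole gate, where fibroblasts add to it, its log2 ratio was -0.97.

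All 3 membrane inhibitors were lower in KO epithelial clusters. Apcdd1 (chr18:62922231-62961179) had 77.8 CPM in WT and 41.8 CPM in KO (log2 -0.89, -0.95 to -0.84). The ligases Znrf3 and Rnf43 were lower by a similar amount: Znrf3 had 226 CPM against 169 CPM (log2 -0.41, -0.44 to -0.39), and Rnf43 142 CPM against 102 CPM (log2 -0.48, -0.52 to -0.45).

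**Figure D1:**
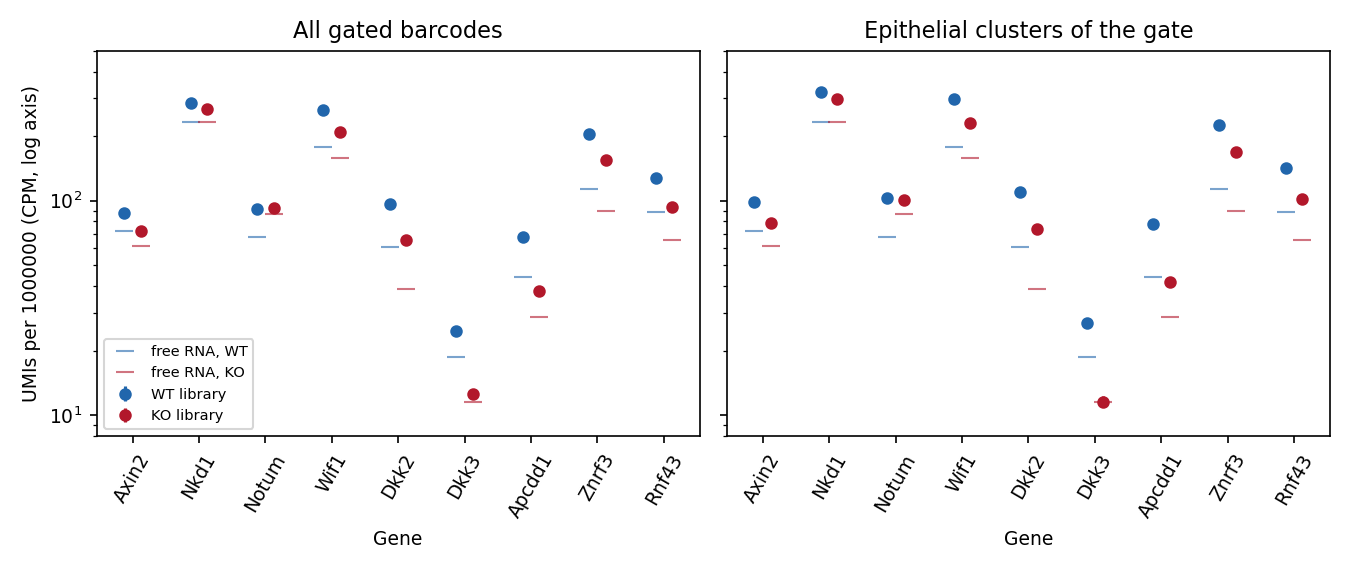
Level of each gene in UMIs per 1000000 (CPM, log axis) in all gated barcodes (left) and in their epithelial clusters (right); points are the libraries' summed UMIs with 95% Poisson intervals, mostly smaller than the point, and short bars are the level in free RNA (barcodes under 100 UMIs). Dkk3 and Apcdd1 show the widest gaps between the WT and KO points, and the Notum points are level.

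The free RNA of each library carried all 9 genes, as the plot of levels shows. Nkd1 had 233 CPM in free RNA of WT and 232 CPM in that of KO, against 321 and 297 CPM in epithelial clusters. In KO, free RNA held 11.5 CPM of Dkk3, as much as the 11.6 CPM of the epithelial clusters. The part of free RNA in the Dkk3 level was not tested. When free RNA was subtracted from the gate with an estimate pooled over all gated barcodes, which include plasma cells, its share was put at 68.1% in WT and 88.9% in KO, and the log2 ratios of Dkk2 (0.14), Znrf3 (0.21) and Rnf43 (0.03) were above 0 and that of Notum was -0.62. With an estimate from the median epithelial cell, chosen after those values were seen, the share was 9.3% and 10.9% and they were -0.53, -0.38, -0.44 and -0.01. Some markers of other cells were lower in the gate than in free RNA. The 7 neutrophil markers summed to 2062 against 7953 CPM in WT and 1217 against 5186 CPM in KO. The 4 erythroid markers summed to 138.2 against 664.5 CPM and 19.9 against 138.3 CPM. Other lists were higher in the gate: 7 fibroblast markers had 271 against 201 CPM in KO, and 7 dendritic markers 48.0 against 36.5 CPM in WT. The neutrophil and erythroid levels are below what the pooled shares would add to the gate from free RNA alone. Those of fibroblast markers in KO and of macrophage markers in WT (2083 against 2711 CPM) are not.

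How the genes were spread over cells separated the broad from the patchy. After each epithelial cell was thinned to 5000 UMIs, Nkd1 was seen in 59.1% of WT and 51.1% of KO cells, Wif1 in 54.4% and 44.1%, Znrf3 in 54.2% and 46.1%, and Rnf43 in 45.0% and 35.8%. Axin2 was seen in 35.0% and 29.6%, and Notum in 34.4% and 31.4%. Dkk2 was seen in 22.3% and 16.6%, Apcdd1 in 19.9% and 13.2%, and Dkk3 in 10.95% and 5.405%. The top 10% of cells held 76.6% of the Dkk2 UMIs in WT and 82.0% in KO, and 75.1% and 85.4% of those of Apcdd1. For Nkd1 that share was 37.2% and 41.3%.

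The 9 genes occurred in the same cells more often than independent detection would give. In epithelial clusters the number of cells with both genes of a pair exceeded the number expected from their separate shares for 36 of 36 pairs in each library, with a median ratio of 1.29 in WT and 1.49 in KO. Pairs of other genes were not counted in this way, so 36 of 36 cannot be read as particular to these genes. In the whole gate, which mixes cell types, the medians were 1.497 and 1.642. Dkk3 with Apcdd1 had the highest ratio: 175 WT cells held both where 85.9 were expected (2.04), and 76 KO cells where 27.8 were expected (2.74). The lowest were Wif1 with Rnf43 in WT (1.13) and Znrf3 with Rnf43 in KO (1.24). Dkk2 and Dkk3, of the same family, met in 117 WT cells (96.2 expected) and 49 KO cells (35.0 expected).

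**Figure D2:**
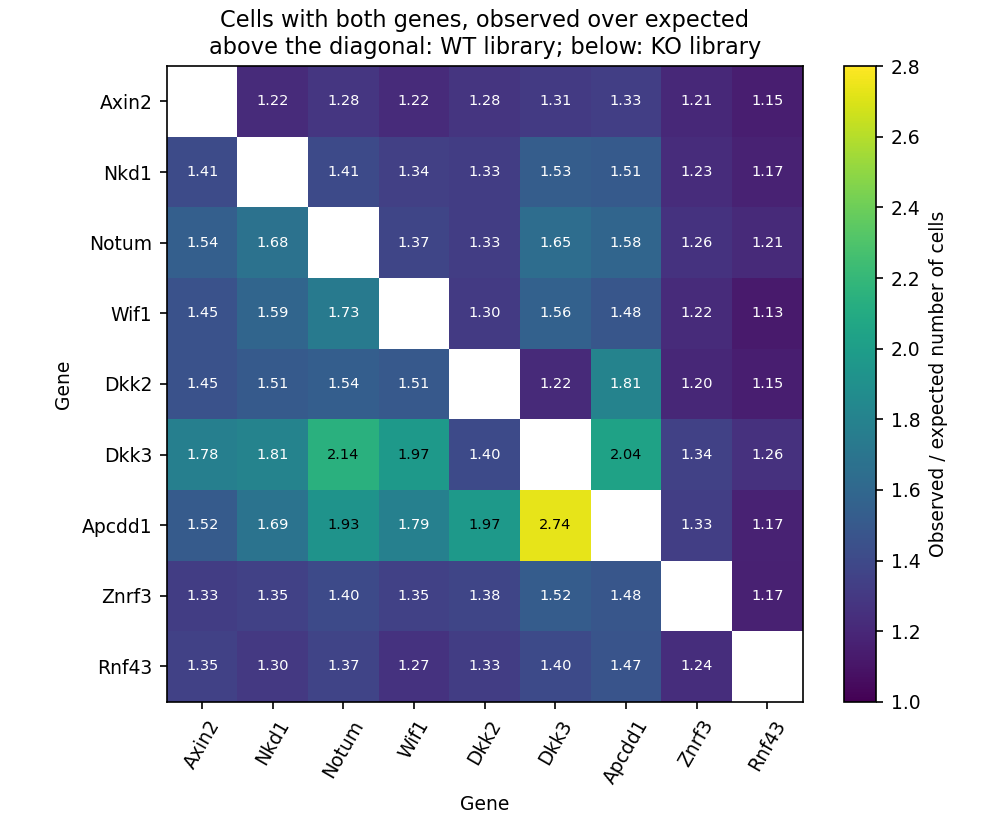
Cells with UMIs of both genes, as observed over expected, for each of 36 pairs in epithelial clusters thinned to 5000 UMIs; the WT library is above the diagonal and the KO library below, and colour follows the printed ratio. Every cell of the map is above 1, and the pair Dkk3 and Apcdd1 is highest in both libraries (2.04 and 2.74).

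Cells with none of the 9 genes were also in excess. In WT epithelial clusters 425 cells had no UMI of any of them where 43.7 were expected, and in KO 735 where 122 were expected. At the other end, 694 WT cells held 6 or more of the 9 genes (231 expected) and 468 KO cells did (74.8 expected). All 9 were seen in 8 cells of each library.

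Every other member was seen more often in cells with Axin2 than in cells without it. Notum was seen in 29.1% of WT cells without Axin2 (2557 cells) and in 61.7% of those with 3 or more Axin2 UMIs (107 cells); in KO the shares were 24.2% (2748 cells) and 69.5% (82 cells). Nkd1 went from 51.9% to 86.9% in WT and from 42.3% to 92.7% in KO. Rnf43 went from 41.3% to 54.2% in WT and from 30.5% to 56.1% in KO. A ratio of 1.5 or more with Axin2 in both libraries was met by 2 of 8 members in the gate (Notum and Apcdd1; 1.13% of 12429 genes), and by 0 of 8 in epithelial clusters (0.100% of 11985 genes).

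**Figure D3:**
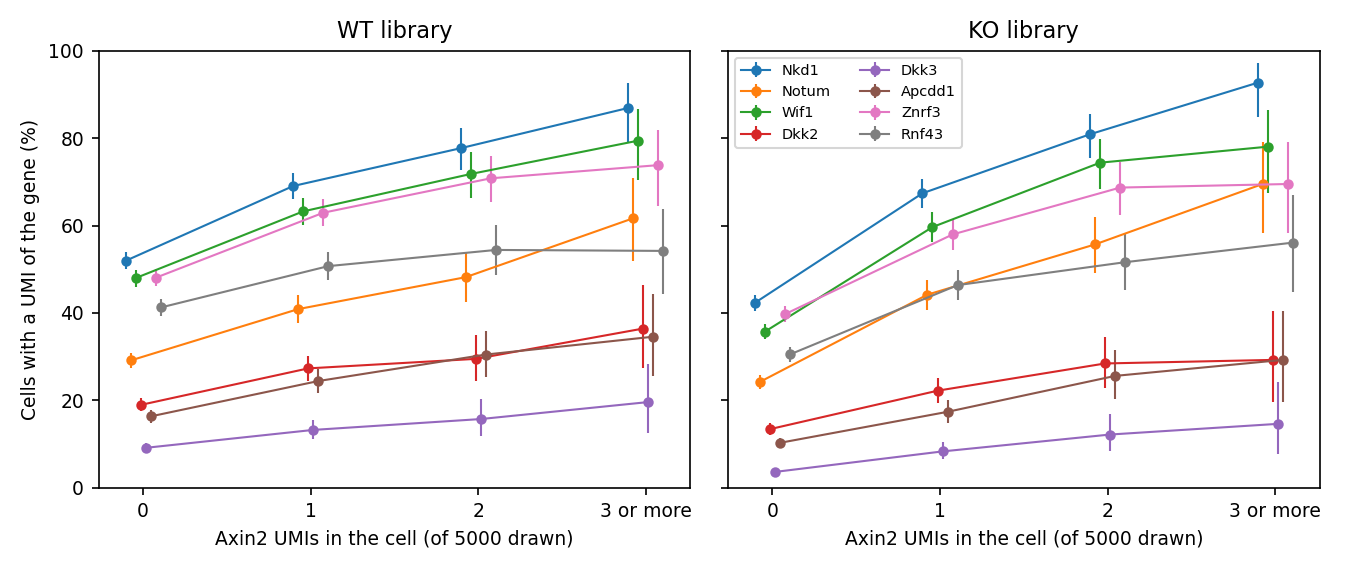
Share of epithelial cells with a UMI of each gene (y axis, %) by the number of Axin2 UMIs in the cell (x axis), all cells thinned to 5000 UMIs; points are shares with exact 95% binomial intervals. Shares are higher in cells with Axin2 than without it for all 8 genes in both libraries, and Nkd1 reaches 86.9% (WT) and 92.7% (KO).

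Correlation of thinned log counts over cells ranked the pairs in another way. Nkd1 and Wif1 had the highest r of the 36 pairs (0.51 over 3935 WT cells, 0.62 over 3904 KO cells), and Dkk2 and Dkk3 the lowest (0.06 and 0.04). Cells of 1 library share its free RNA and depth, so these values are descriptions. Of 8476 genes compared, those most like Nkd1 outside the 9 were Ifitm3, Spock2, Mt3, Prox1 and Aspscr1 (r of Ifitm3 0.55 in WT and 0.63 in KO). Apcdd1 was most like Ptn, a growth factor, then Mt3 and Wnt6, a Wnt ligand. Dkk2 was most like Exoc4 and Wnt6 (r 0.38 and 0.32 for Wnt6). Rnf43 was most like Tcf4, with Lgr5, the R-spondin receptor of crypt stem cells, among the 5 most like it (r 0.20 and 0.25).

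The co-detection was weaker within subclusters of epithelial cells. The epithelial clusters of the gate fell into 9 subclusters when the 9 genes were left out of the clustering, and the subclusters are called here by their leading genes. Genes most like the 9, such as Ptn and Wnt6, were not left out, so the subclusters are not independent of the 9 genes. Whether the kind of cell accounts for the co-detection was not tested. With the expected number computed within each subcluster and summed, the median ratio of the 36 pairs was 1.06 in WT and 1.05 in KO, against 1.29 and 1.49 before. Of the 36 pairs 35 were above 1 in WT and 33 in KO, but the interval lay above 1 for 6 in each. Dkk2 with Dkk3 was below 1 in both (0.83 in WT, 0.69 to 0.99; 0.79 in KO, 0.58 to 1.04).

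Levels were highest in the subcluster led by Pnliprp2, Bpifb5 and Sox11 (504 WT and 478 KO cells) for 8 of 9 genes in WT and 7 of 9 in KO. There Nkd1 had 669 CPM in WT and 741 CPM in KO, Wif1 615 and 681 CPM, Dkk2 429 and 276 CPM, and Apcdd1 348 and 178 CPM. Rnf43 was highest in the subcluster led by Clstn2, Thbs2 and Cdo1, with 195.9 CPM in WT and 159.9 CPM in KO, and Axin2 in KO was highest in the one led by Cadps, Tgm4 and Gkn3 (145.5 CPM). The lowest levels were mostly in the subcluster led by Adh1, Muc3 and Sycn or in the goblet-like one led by Zg16, Fcgbp and Muc2. Apcdd1 spanned 146-fold between its highest and lowest subcluster in WT, from 348 to 2.39 CPM (5 UMIs at the low end). Rnf43 spanned 4.20-fold in WT and 5.23-fold in KO.

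Within subclusters the 9 genes differed in how often they were lower in KO. Rnf43 was lower in KO in 9 of 9 subclusters, with the interval below 0 in 8, and its log2 ratios lay between -0.61 and -0.18. Znrf3 was lower in 8 of 9, with the interval below 0 in 7. Dkk3 was lower in 8 of 9, with the interval below 0 in 5; no interval of these 3 genes was above 0. Those 5 include subclusters where Dkk3 was far below its free RNA level (18.6 CPM in WT, 11.5 CPM in KO). It had 3.20 and 1.41 CPM in the subcluster led by Fut9 (80 and 30 UMIs). In the one led by Clca4b it had 4.07 and 2.24 CPM (65 and 32 UMIs). The part of free RNA in these levels was not tested. Dkk2 and Apcdd1 were lower in 7 of 9, with the interval below 0 in 5 for each, and above 0 in 1 for Apcdd1 and 0 for Dkk2. Axin2 was lower in 4 of 9, with the interval below 0 in 4 and above 0 in 1. Nkd1, Notum and Wif1 were higher in KO in 6 of 9 subclusters each, with the interval above 0 in 4 for each, and below 0 in 3 for Nkd1, 1 for Notum and 3 for Wif1.

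In the subcluster led by Clstn2 (568 WT and 1091 KO cells) Notum had 150.8 CPM in WT and 208.8 CPM in KO (log2 0.47, 0.40 to 0.55). In the same cells Nkd1 had 478 and 605 CPM (log2 0.34), while Dkk2 had 131 and 103 CPM (log2 -0.34). No member was beyond 1.5-fold in either direction there, against 7.39% of genes lower and 6.21% higher. In the Pnliprp2 subcluster 3 of 9 were lower beyond 1.5-fold, against 8.66% of genes: Dkk2 (log2 -0.64), Dkk3 (-0.85) and Apcdd1 (-0.97); none was higher, against 6.32%. In the goblet-like subcluster 7 of 9 were lower, against 13.2% of genes (0 higher, against 7.76%), on few WT cells (78 WT, 344 KO); Dkk3 there rested on 13 and 18 UMIs.

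The subclusters were unequal between the libraries. The one led by Cadps, Tgm4 and Gkn3 held 1060 WT and 86 KO cells, and those led by Adh1 and by Zg16 held 103 and 78 WT against 397 and 344 KO cells. Nkd1 had 495 CPM in the WT cells of the Cadps subcluster. There 2 of 9 genes, Notum and Apcdd1, were higher in KO beyond 1.5-fold, against 7.90% of genes, and 0 were lower, against 17.7%. Without that subcluster, an alternative chosen after seeing the data, the log2 ratios in epithelial clusters were 0.20 for Nkd1, 0.18 for Notum and 0.06 for Wif1, so that these 3 were above 0. As the mean over 9 subclusters of equal weight, also chosen after seeing the data, Axin2, Nkd1 and Wif1 lay near 0 on the log2 scale (-0.003, 0.02 and -0.0003), while Notum was at 0.17, Dkk2 at -0.10, Apcdd1 at -0.40, Rnf43 at -0.35, Znrf3 at -0.32 and Dkk3 at -0.87. That mean gives full weight to the subcluster led by Chgb (24 WT, 33 KO cells), where Axin2 rested on 8 and 23 UMIs and Dkk2 on 4 and 17 UMIs. The summed ratios thus depend on how many cells of each kind a library holds, and with 1 library per genotype that cannot be told apart from genotype.

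**Figure D4:**
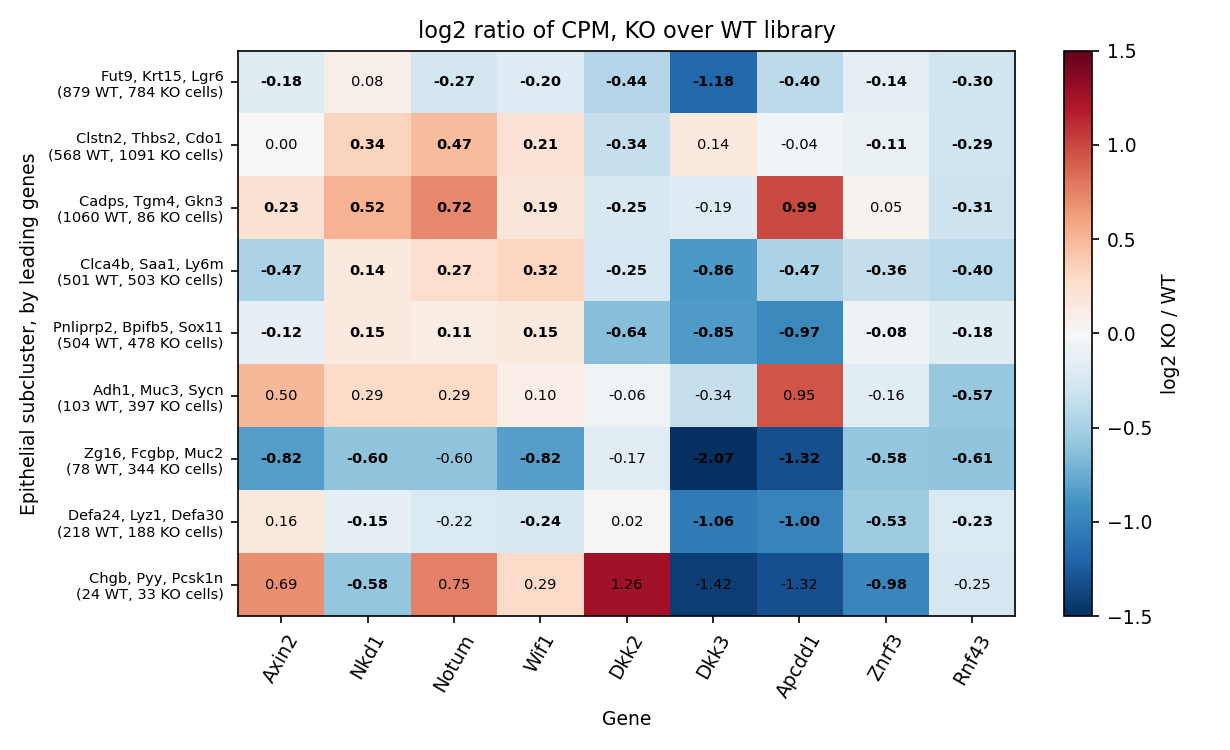
Log2 ratio of CPM, KO over WT library, for each gene (columns) in each of 9 epithelial subclusters (rows, by leading genes, with cell numbers); bold values have a 95% counting interval that excludes 0. The Rnf43 column is below 0 in every row, and the Nkd1, Notum and Wif1 columns are above 0 in 6 of 9 rows.

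Over all called cells, clustered at 9905 WT and 10562 KO cells, 8 of 9 genes were highest, among the named classes, in the epithelial class in each library. A cluster left unnamed, led by Cadps and with 751 WT and 66 KO cells, had more of 6 of these 8 genes than the epithelial class in each library, all but Dkk2 and Apcdd1: it held 414 CPM of Nkd1 in WT and 628 CPM in KO, and 2193 and 2105 CPM of Epcam. Neutrophils, which serve here as background, had 35.98 and 43.64 CPM of Nkd1 and 28.5 and 29.8 CPM of Wif1 (median depth 2405 and 1845 UMIs). Per UMI of Nkd1 they held 0.79 and 0.68 UMIs of Wif1, next to 0.77 and 0.68 in free RNA.

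Dkk3 was the exception, with its highest level in fibroblasts. Fibroblasts had 191.5 CPM in WT (143.8 to 249.8; 27 cells) and 121.5 CPM in KO (105.0 to 139.9; 205 cells), against 24.4 and 12.0 CPM in the epithelial class and 2.16 and 2.09 CPM in neutrophils. Wif1, after the epithelial class and among the named ones, was highest in KO fibroblasts at 97.0 CPM (82.3 to 113.6), with 3.21 UMIs per Nkd1 UMI (2.31 to 4.53) against 0.68 in free RNA. In WT fibroblasts it had 63.8 CPM on 18 UMIs. Dkk3 was also seen in T cells led by Trdc, Cd163l1 and Il17a, genes of γδ and interleukin 17 producing T cells, with 66.4 CPM in WT (142 cells) and 64.1 CPM in KO (93 cells); T cells led by Themis, Ifng and Nkg7 had 9.38 and 3.66 CPM.

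The ligases were above the neutrophil level in T or NK cells, and Znrf3 also in plasma cells. Znrf3 in T or NK cells had 63.7 CPM in WT (55.3 to 72.9; 799 cells) and 91.3 CPM in KO (81.1 to 102.5; 756 cells), against 21.4 and 17.8 CPM in neutrophils. After thinning to 1000 UMIs, 6.79% of WT and 8.76% of KO T or NK cells held a UMI, against 2.17% and 1.81% of neutrophils. Rnf43 had 49.1 and 40.8 CPM in T or NK cells against 16.3 and 13.9 CPM in neutrophils. Plasma cells had 149.5 CPM of Znrf3 in WT (41 cells) and 108.4 CPM in KO (69 cells). Per Nkd1 UMI this was 6.11 and 2.58 UMIs, against 0.49 and 0.39 in free RNA. Other classes were above free RNA by this measure too. Znrf3 had 0.94 and 0.97 in monocytes or macrophages, and 2.40 (12 UMIs) and 2.13 (32 UMIs) in endothelial cells. Rnf43 had 0.78 in KO B cells (40 UMIs), against 0.28 in free RNA. Dkk2 in endothelial cells had 43.6 CPM in WT (16 UMIs, 37 cells) and 36.1 CPM in KO (24 UMIs, 72 cells), against 10.4 and 7.11 CPM in neutrophils.

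**Figure D5:**
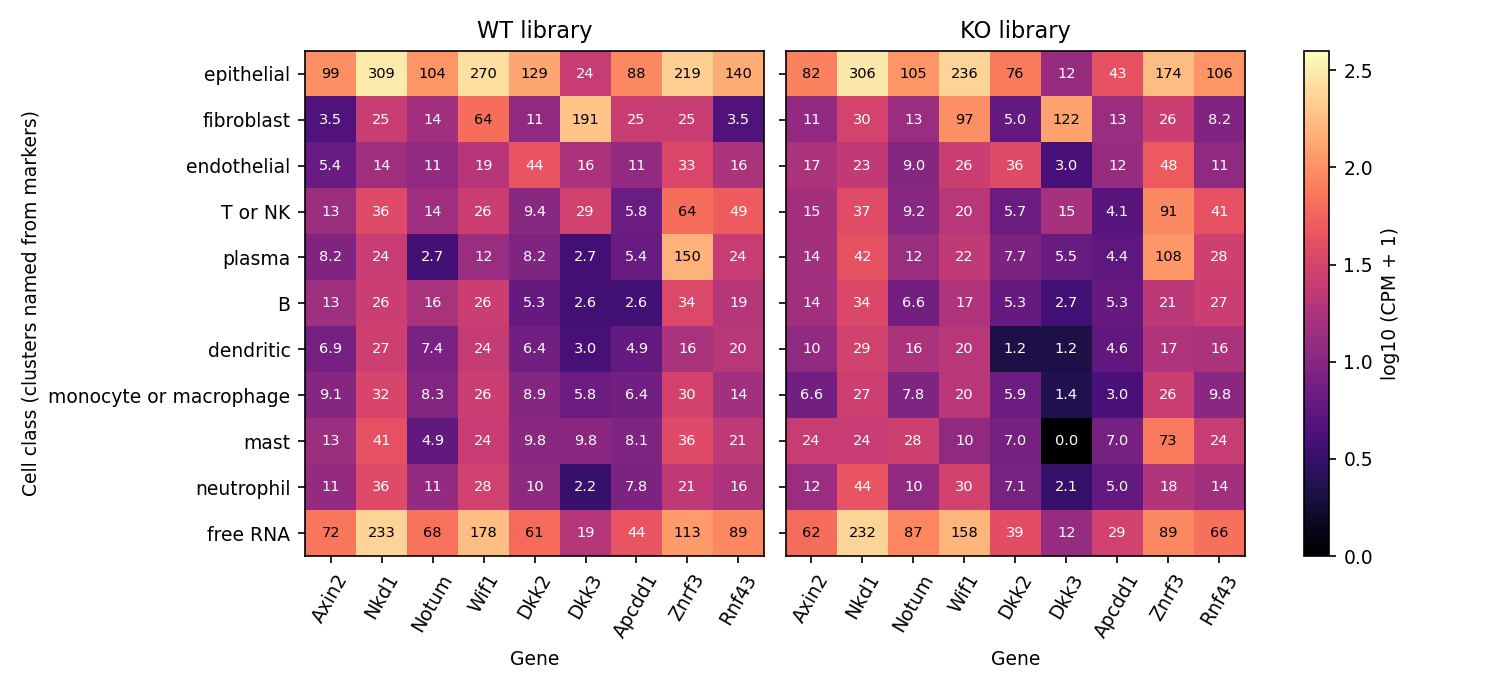
Level of each gene (columns) in each named cell class and in free RNA (rows) for the WT library (left) and KO library (right); numbers are CPM and colour is log10 (CPM + 1). Among the named classes the epithelial row is highest for every gene but Dkk3, which is highest in fibroblasts (191.5 and 121.5 CPM).

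The rest of the pathway did not share one direction. Of the 14 other extracellular inhibitors with 20 or more UMIs in the gate, 8 were higher and 1 lower beyond 1.5-fold, against 9.01% and 10.3% of all genes; in epithelial clusters they were 5 and 1 of 13, against 7.10% and 11.7%. Among the higher ones in epithelial clusters, Tpbg had 13.1 CPM in WT and 19.8 CPM in KO (log2 0.59). Trabd2b had 5.67 and 9.64 CPM there (log2 0.77), and Dkkl1 1.30 and 2.64 CPM (log2 1.02). Sfrp1, a secreted Wnt-binding protein, had 3.45 CPM in WT and 28.9 CPM in KO gated barcodes (log2 3.06). These include the 30 and 172 fibroblast barcodes given above. In epithelial clusters Sfrp1 had 0.51 and 3.21 CPM, where the 7 fibroblast markers summed to 4.78 and 26.8 CPM. The fibroblast class had 1347 and 2012 CPM of Sfrp1. The part of fibroblast RNA in its epithelial level was not tested. None of the 12 destruction complex genes was beyond 1.5-fold, and Ctnnb1, which encodes β-catenin, had 497 and 400 CPM in epithelial clusters (log2 -0.31). Among 16 receptors 1 was, Fzd10, with 4.05 and 1.68 CPM (log2 -1.27). Of 18 other Wnt target genes in epithelial clusters, 4 were lower and 1 higher beyond 1.5-fold: Mmp7, a matrix protease, had 692 and 390 CPM, Sp5, a transcription factor, 61.6 and 37.3 CPM, and Lef1 77.9 and 51.2 CPM, while Rgmb, a bone morphogenetic protein co-receptor, had 20.3 and 32.8 CPM. Of 13 nuclear effectors in epithelial clusters, 2 were higher and 2 lower beyond 1.5-fold, against 7.10% and 11.7% of all genes. Tle4, a co-repressor, had 84.2 and 131 CPM and Tcf7l1 24.2 and 42.7 CPM. The lower ones were Lef1, given above, and Tle2, with 0.85 and 0.26 CPM. Of the R-spondin receptors Lgr6 had 15.8 CPM in WT and 6.74 CPM in KO epithelial clusters (log2 -1.23).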

How the data were processed

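The authors deposited raw UMI counts (whole numbers) of all barcodes, empty ones included, made with Cell Ranger 4 per the file headers; the submitters' processing notes name mm10 and Seurat. Members, lists and thresholds were chosen with earlier results of these data known. Total depth was 164574326 UMIs (WT, 2446729 barcodes) and 156641780 UMIs (KO, 2457921 barcodes); 69 barcodes of 500 or more UMIs occurred in both.

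For the gate, UMIs were summed per library and divided by the total (CPM), with exact Poisson intervals and an exact conditional binomial interval for the ratio; no test was possible. A gene beyond 1.5-fold is called, among those with 20 or more UMIs. Co-detection used cells thinned to 5000 UMIs. For classes, cells were called against free RNA (barcodes under 100 UMIs; 10000 draws, FDR 0.001), kept at 200 or more genes and at most 25% mitochondrial UMIs, and stripped of the highest Scrublet scores at 0.8% per 1000 cells, which left 9905 WT and 10562 KO cells. Clustering used 2000 variable genes, 30 components, 15 neighbours and Leiden resolution 1 (0.6 for the gate, without the members), with no batch integration. Doublets were kept inside the gate. Clusters were named from fixed markers; how lineage and sub-type names are given to gate clusters was changed after a first result was seen, so subclusters are called by leading genes. The co-detection within subclusters, the T cell clusters and the ratios to Nkd1 were added after the first results. Promoters were cut to the 250 bases before the start, from 300, after the longer window had no 7-letter match, to leave out transcribed bases.

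Of the other pathway lists, up to 4 called genes with the most UMIs were open to naming, and genes most like a member were the 5 of highest mean r. The calculations were tested on simulated data. Alternatives were 16 settings of the ratio and others of co-detection and class. Software: scanpy 1.11.5 with leidenalg 0.10.2 and igraph 0.11.9 for clustering, scipy 1.17.1 for intervals, scikit-learn 1.9.0, numpy 2.4.6 and pandas 2.3.3 under Python 3.11.15, and matplotlib 3.10.9. All intervals cover counting error only.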

Additional observations from a re-analysis of the deposited data

How the results depend on the processing

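No paired analysis was possible because there is 1 library per genotype. Dkk3 and Apcdd1 had negative log2 ratios under all 16 settings (Dkk3 from -1.39 to -0.58, Apcdd1 from -0.99 to -0.40), as did Axin2 (-0.32 to -0.003). Settings that changed only the UMIs a gene needs to be counted could not move a member's ratio. Subtracting free RNA as first planned, from pooled immunoglobulin and haemoglobin UMIs of the gate, put the free share at 68.1% (WT) and 88.9% (KO), and plasma cells lie in the gate. Under it 6109 genes were higher and 6463 lower beyond 1.5-fold, against 1769 and 2026, and 3 members were lower; Dkk2 (0.14), Znrf3 (0.21) and Rnf43 (0.03) were above 0, and Notum was -0.62. A second estimate, chosen after those values were seen, took the median immunoglobulin share of epithelial cells (9.3% and 10.9%); it gave 1886 and 2213 genes, 2 members lower, and no sign change but Notum (-0.01). Without a minimum of 20 UMIs, 3952 genes were higher and 4535 lower, since genes of few UMIs entered. With subclusters of equal weight 1 member, Dkk3, was lower beyond 1.5-fold; in epithelial clusters without the Cadps subcluster 1149 genes were higher; the cause was not tested. The median co-detection was 1.298 (WT) and 1.356 (KO) without thinning, 1.722 (WT) at 2000 UMIs and 1.293 (WT) in epithelial clusters alone. Other settings kept the called counts within 1.5 times.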

Other observations

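Lgr5, the R-spondin receptor that marks crypt stem cells and a Wnt target itself, was higher in KO. It had 130.2 CPM in WT and 175.2 CPM in KO gated barcodes (log2 0.43, 0.40 to 0.46), and in epithelial clusters thinned to 5000 UMIs it was seen in 36.7% of WT and 43.4% of KO cells. Epcam, which the gate uses, was also higher in KO, with 2024 and 2398 CPM.

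At the depth limit of the gate Nkd1 had similar levels on both sides, but other members differed more. Barcodes up to 1000 UMIs above the limit had 102.3 CPM of Nkd1 in WT and 89.9 CPM in KO. Those up to 1000 UMIs below it had 99.4 and 103.1 CPM. Apcdd1 in WT had 38.0 CPM above the limit and 17.8 CPM below it. Znrf3 in KO had 67.2 CPM above and 100.4 CPM below. Barcodes with 5000 or more UMIs and a single Epcam UMI (489 WT, 312 KO) had 10.2 and 10.4 CPM of Axin2, close to the 10.7 and 8.26 CPM of those with no Epcam UMI (357 WT, 224 KO). Ptprc, a marker of leukocytes, had 560 and 503 CPM in the first and 612 and 606 CPM in the second.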
